A study of Mus musculus with 8 samples.

Results

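3T3-L1 cells were compared at day 6 of adipogenic differentiation with day 0, across the whole transcriptome. 3T3-L1 is a mouse fibroblast line that turns into fat-storing, white-type adipocytes in culture. The members were the 4 3T3-L1 libraries among the 8 libraries of the series, with 21828 gene rows. The day 6 group (2 libraries, replicates 1 and 2) was WT 3T3-L1 cells taken through adipogenic differentiation, first in IBMX, indomethacin, dexamethasone, insulin and T3 until day 2, and afterwards in insulin and T3 alone. The day 0 group (2 libraries, replicates 2 and 3) was the same WT line at the start of that protocol, past confluence and before any inducer was given. Both groups were grown in serum, and the labels give embryo as the tissue and fibroblast as the cell type. Cells of 1 line were used throughout. The study's methods say in general terms that distinct samples were measured and that culture experiments were repeated, but neither they nor the labels tie these libraries to separate cultures. The p-values therefore reflect the spread among the 4 libraries, which may be technical in part.

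Adipocytes form from fibroblast-like precursors in steps. Inducers first raise C/EBP factors and the glucocorticoid response, after which PPARγ and C/EBPα switch on the genes of the lipid droplet, of fatty acid uptake and synthesis, and of the insulin response. The precursor meanwhile loses its stress fibres and rebuilds its fibrous collagen matrix into a basement membrane.

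Libraries held between 9507279 and 9590498 counts, and levels below are given as TMM-normalised CPM (counts scaled to a common library total), each library in turn. TMM is the scaling edgeR uses to make libraries comparable. Of 21828 rows, 6001 had no count in any library and 11902 passed the low-count filter and were tested. With edgeR's quasi-likelihood test and a Benjamini-Hochberg adjusted p threshold of 0.05, 4736 genes were higher at day 6 and 4717 lower, and 2449 did not pass. A total of 2092 genes were at least 2-fold higher and 2210 at least 2-fold lower, whereas at 32-fold the counts were 237 and 13. The day 6 transcriptome was also more concentrated. The desaturase Scd1 alone took 4.79% and 4.91% of all counts at day 6, whereas the most abundant gene at day 0, the collagen chain Col1a2, took 1.46% and 1.41%. Scaling by library size alone moved the median of all genes by −0.29 on the log2 scale and left 3424 higher and 6306 lower, so 35.2% of the calls were higher in place of 50.1%. Upper-quartile scaling moved the median by −0.16. All log2 changes below are from the TMM fit, with their standard error, over 2 libraries at each day.

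**Figure D1:**
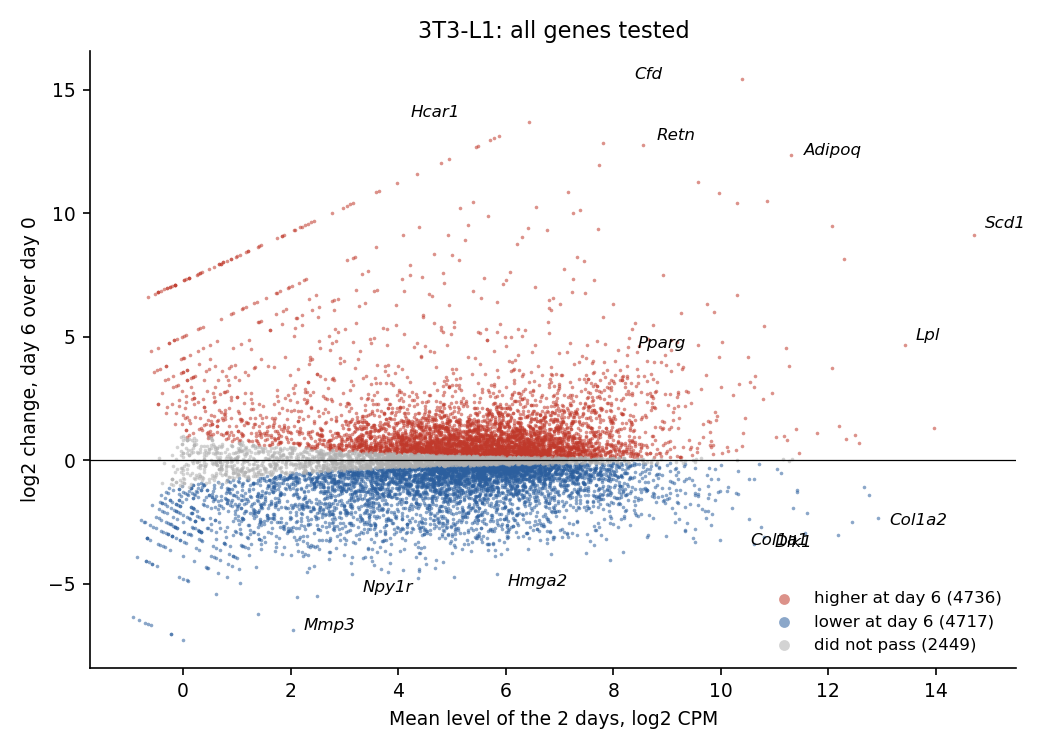
log2 change at day 6 over day 0 against the mean level (log2 CPM) for the 11902 genes tested. Each point is a gene, red where higher at day 6 (4736), blue where lower (4717) and grey where it did not pass (2449). Straight strings of points at the upper left are genes with no count at day 0, whose fitted change depends on the prior count. Rises reached further from 0 than falls.

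The adipocyte markers checked the labels. All 6 (Cfd, Adipoq, Plin1, Cidec, Lep and Fabp4) rose, and their summed level was 21123 and 19708 CPM at day 6, against 22.2 and 8.72 CPM at day 0. Markers of other cells were also summed. The 12 immune markers summed to 5.33 and 5.12 CPM at day 6, against 19.2 and 15.8 CPM at day 0, and Ptprc and Adgre1 had no count in any library. The 10 endothelial markers summed to less than 5 CPM at either day. The 16 skeletal muscle markers summed to 66.4 and 64.7 CPM at day 6, against 2.56 and 4.17 CPM at day 0, through Mb, Des and Acta1, whereas Myod1 and Myog had no count in any library and Ckm had 1. The 13 bone and cartilage markers summed to 71.2 and 69.0 CPM at day 6, against 209 and 219.5 CPM at day 0. The 11 Schwann and neuronal markers summed to 27.8 and 30.6 CPM, against 23.6 and 23.4 CPM, and among them Snap25 had 143 and 164 counts at day 6, against 1 and 0 at day 0. The part of these markers in the results below was not tested. In a bulk library, fewer cells of a type and less RNA per cell cannot be told apart.

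The 10 largest rises among well expressed genes were all from near absence. Cfd, which encodes adipsin, led with 2797 and 2609 CPM at day 6, against 0.0947 and 0 CPM at day 0. Hcar1, the lactate receptor of fat cells, had 183 and 163 CPM at day 6 and no count at day 0, and was at least 1217-fold higher. Hcar2, the neighbouring niacin receptor, had 112 and 109 CPM and no count, and was at least 778-fold higher. Both receptors lower cAMP. Retn, which encodes the hormone resistin, had 777 and 732 CPM against 0.0947 and 0.0948 CPM, a ratio of 7964 (95% interval 2204 to 65764). Pck1, the cytosolic phosphoenolpyruvate carboxykinase, had 471 and 427 CPM against 0 and 0.0948 CPM, a ratio of 9483 (1701 to 374604). Bounds use a floor of 3 counts over the day 0 group, and intervals and floors cover counting error only. Aatk, a membrane kinase first described in dying myeloid cells, belonged to the same set with 110.3 and 99.952 CPM at day 6 and no count at day 0. It was at least 740-fold higher. The patatin-like lipase Pnpla3 had 89.4 and 84.6 CPM at day 6 and no count at day 0 (at least 612-fold). Adipoq, the gene of adiponectin, had 5006 and 5059 CPM at day 6, against 1.42 and 0.474 CPM at day 0 (12.36 ± 0.12). Without day 0 replicate 2 the change of Adipoq was 13.34. The groups did not overlap in any of these genes, but they were chosen for the size of their rise, so this adds no evidence.

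The 10 largest falls among the same well expressed genes (mean log2 CPM of at least 3) were smaller, between −4.77 and −4.36. Some genes of a lower mean level fell further. Over all tested genes 13 fell at least 32-fold, among them Mmp3, with 1 and 0 counts at day 6. Each of the 10 well expressed genes still had between 5 and 48 counts in a library at day 6. Fbln7, a fibulin, had 1.16 and 1.75 CPM at day 6, against 39.9 and 39.9 CPM at day 0 (−4.77 ± 0.17). Npy1r, a neuropeptide Y receptor, had 1.74 and 3.03 CPM against 61.4 and 65.0 CPM (−4.72 ± 0.15). Hmga2, a chromatin protein of embryonic and proliferating mesenchyme, had 5.56 and 3.61 CPM against 109 and 110 CPM (−4.58 ± 0.11). These 3 genes act in different processes. Id2, an inhibitor of basic helix-loop-helix factors, had 1.85 and 1.75 CPM against 45.1 and 35.6 CPM (−4.48 ± 0.19). Gata2, which holds precursors undifferentiated, had 1.27 and 1.75 CPM against 32.3 and 32.8 CPM (−4.42 ± 0.18). Grem1, a secreted BMP antagonist, had 2.20 and 2.56 CPM against 44.1 and 53.9 CPM (−4.36 ± 0.17). Ptprv, Ces1a, Mamdc2 and Pitpnc1 completed the set. Day 6 and day 0 libraries did not overlap in any of the 10, which again follows from choosing them by the size of their change.

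**Figure D2:**
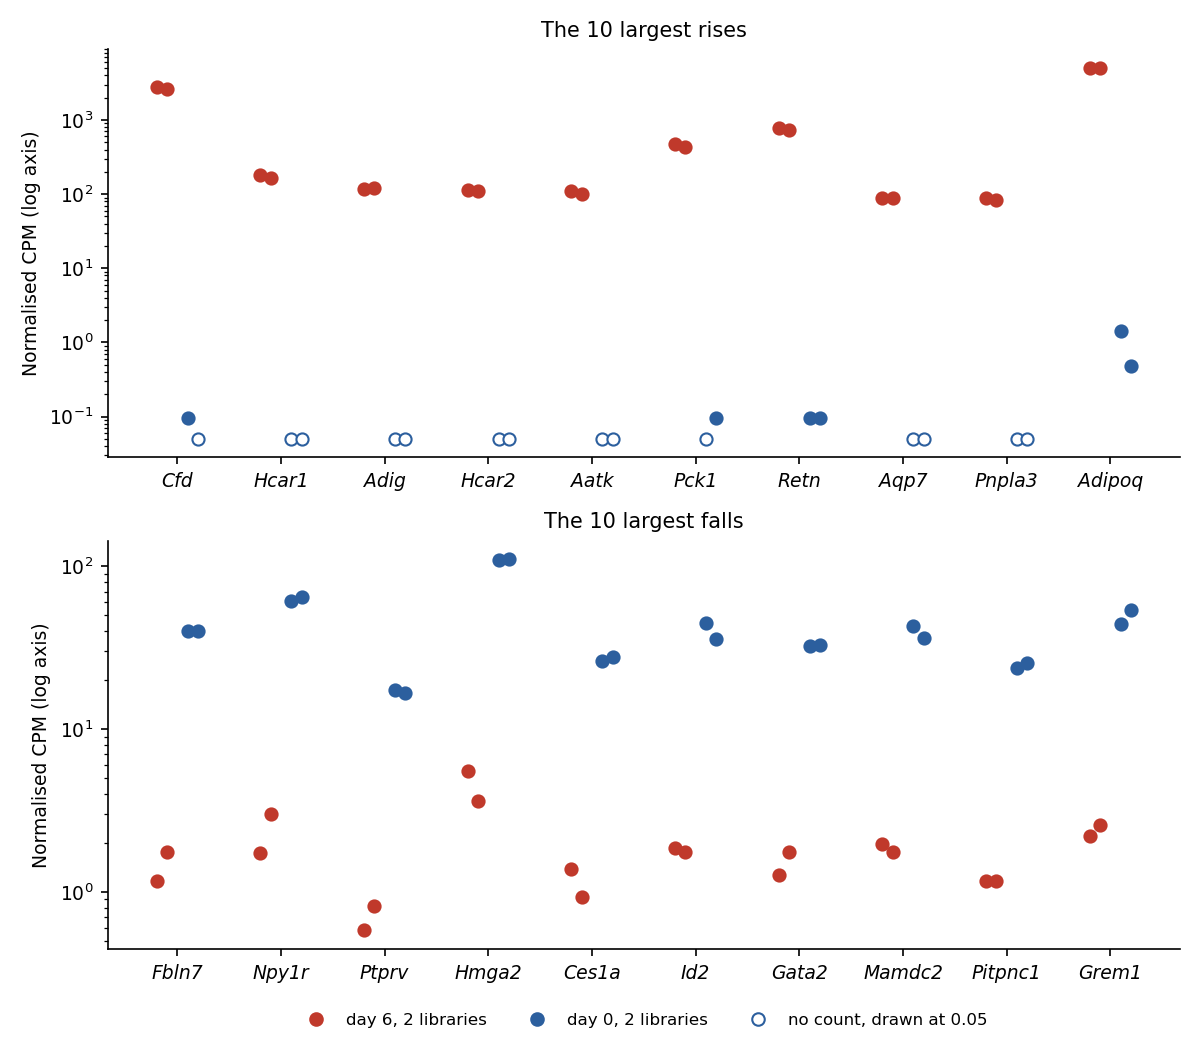
Normalised CPM on a log axis of the 10 largest rises (top) and the 10 largest falls (bottom) among well expressed genes. Each library is 1 point, red for day 6 and blue for day 0. Open points are libraries with no count, drawn at 0.05. The rises sat at no or a few counts at day 0, whereas each fallen gene shown kept between 0.58 and 5.56 CPM at day 6. Less expressed genes, which could fall further, are not shown.

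Transcription factors of adipogenesis were taken first among the gene families. Each family is given below by how many of its tested members passed in each direction and by its median, and 39.8% of all tested genes were higher and 39.6% lower, with a median of 0.00. Of 26 adipogenic factors, 20 were higher and 6 lower, with a median of 1.33. Pparg, the master regulator, had 588 and 578 CPM at day 6, against 30.9 and 29.6 CPM at day 0 (4.27 ± 0.06). Cebpa, its partner, had 589 and 545 CPM against 41.8 and 38.9 CPM (3.81 ± 0.06). Rxrg, a retinoid X receptor that pairs with PPARγ, had 11.004 and 9.89 CPM at day 6 and no count at day 0 (at least 73.5-fold). Klf15, a glucocorticoid-responsive Krüppel-like factor, had 80.9 and 76.3 CPM against 0.0947 and 0.0948 CPM, a ratio of 830 (229 to 6857). Srebf1, which drives fatty acid synthesis genes, rose less, with 181 and 179.7 CPM against 50.4 and 49.98 CPM (1.85 ± 0.06). The 6 that were lower were Id2 and, named after their values were seen, Klf5, Klf4, Ebf3, Cebpd and Egr2. Cebpd, Klf4, Klf5 and Egr2 are known as factors of the early phase.

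Genes of the lipid droplet surface rose, with 13 of 15 higher and 2 lower (median 2.61). Plin1, the perilipin that guards the droplet against lipases, had 1585 and 1481 CPM at day 6, against 0.757 and 0.474 CPM at day 0 (11.25 ± 0.12). Cidec, which fuses small droplets into large ones, had 2511 and 2524 CPM against 3.60 and 0.0948 CPM (10.40 ± 0.19). The day 0 libraries of Cidec held 38 counts and 1 count. Its change was 9.44 without day 0 replicate 3, and without day 0 replicate 2 the ratio was 26546 (95% interval 4764 to 1048533), where the fitted fold over both libraries was 1353. Plin3, a perilipin that most cells carry, went the other way with 58.5 and 52.2 CPM against 142 and 137 CPM (−1.33 ± 0.07). The small membrane protein Adig had 117 and 119.6 CPM at day 6 and no count at day 0.

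Triglyceride assembly followed the droplet. Of 20 genes, 18 were higher and 1 lower, with a median of 2.68. Gpd1, which makes glycerol-3-phosphate from a glycolytic intermediate, had 3818 and 3600 CPM at day 6, against 4.17 and 0.948 CPM at day 0 (10.49 ± 0.15). The change of Gpd1 was 11.92 without day 0 replicate 2 and 9.79 without day 0 replicate 3. The glycerol channel Aqp7 had 88.7 and 89.4 CPM at day 6 and no count at day 0. Agpat4 was the member that fell, with 10.8 and 11.1 CPM against 34.6 and 31.7 CPM (−1.60 ± 0.11). It belongs to the lysophosphatidate acyltransferases, of which Agpat2 rose by 4.59 ± 0.08.

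Lipolysis and its receptors showed the highest median of the metabolic families, 6.32, and all 21 tested members were higher. The β3-adrenergic receptor gene Adrb3, by which noradrenaline starts lipolysis, had 437 and 411 CPM at day 6, against 0.189 and 0 CPM at day 0, a ratio of 4474 (1238 to 36948). The cAMP-lowering receptor genes Hcar1 and Hcar2 rose as well, as given above. Pde3b, the phosphodiesterase by which insulin lowers cAMP, had 395 and 394 CPM against 2.75 and 2.18 CPM (7.32 ± 0.09). In the wider cAMP list, 19 of 36 genes were higher and 14 lower (median 0.77), and Adra2a, an α2-adrenergic receptor, fell by 2.47 ± 0.38.

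Fatty acid synthesis and uptake genes had the highest summed levels of the gene lists at day 6. The 27 synthesis, elongation and desaturation genes summed to 71635 and 73177 CPM at day 6, against 2234 and 2303 CPM at day 0. Among the 24 tested, 21 were higher and 3 lower, with a median of 2.25. Scd1, which puts the double bond into stearate, had 53009 and 54355 CPM against 102 and 91.6 CPM (9.12 ± 0.09, a fold of 555). The spot 14 gene Thrsp, induced with lipogenesis, had 239 and 199 CPM against 0.473 and 0.190 CPM (9.31 ± 0.18). Scd3, a close copy of Scd1, read 45.4 and 28.5 CPM against 0.0947 and 0.284 CPM, a value that is uncertain because reads of Scd1 may have been assigned to it. Elovl4, an elongase of very long chains, read −1.89 ± 0.51 and passed the edgeR test, but not with DESeq2 (adjusted p = 0.0623) or in edgeR without day 6 replicate 1 (−1.31, adjusted p = 0.107). Without day 6 replicate 2 it read −2.85. Thrsp had 5 and 2 counts at day 0, and without day 0 replicate 2 its ratio was 1154 (95% interval 319 to 9534).

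Of 15 uptake, binding and activation genes, 12 were higher and 3 lower (median 1.77). Cd36, the fatty acid translocase, had 1999 and 1992 CPM at day 6, against 2.08 and 0.0948 CPM at day 0 (10.82 ± 0.16). Fabp4, the adipocyte fatty acid carrier, had 9212 and 8027 CPM against 16.4 and 7.68 CPM (9.48 ± 0.15). Cd36 read 9.89 without day 0 replicate 3. Without day 0 replicate 2, Fabp4 read 10.13, and 1 count of Cd36 was left at day 0, a ratio of 21043 (95% interval 3777 to 831171). Gpihbp1, which carries lipoprotein lipase across endothelium, had 0 and 0.116 CPM against 1.42 and 1.04 CPM and was the largest fall, a ratio of day 0 to day 6 of 21.2 (3.49 to 870). Its partner Lpl, lipoprotein lipase itself, chosen after its values were seen, had 21302 and 21128 CPM against 884 and 786 CPM (4.67 ± 0.07).

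Sterol synthesis and uptake genes moved as a block. Of 25 tested, 24 were higher and 1 was lower, with a median of 2.63 and no member above 3.41. Insig1, which retains the SREBP precursor in the endoplasmic reticulum, had 707 and 687 CPM at day 6, against 62.5 and 68.6 CPM at day 0 (3.41 ± 0.06). Fdps, farnesyl diphosphate synthase, had 552 and 554 CPM against 56.1 and 53.1 CPM (3.34 ± 0.06). Nsdhl, which removes methyl groups of lanosterol, rose by 3.31 ± 0.06. Scap, the SREBP escort protein, was the only member that fell, with 63.0 and 64.3 CPM against 81.1 and 82.6 CPM (−0.36 ± 0.06). Sterol efflux and storage genes were split, with 7 of 14 higher and 7 lower.

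SREBP factors bind a sterol response element. The letters TCACCCCAC, searched on both strands, were found in the promoter window of 1 of 18 list members with a RefSeq window, Hmgcs1, and in 0.551% of all 32851 windows. Each window runs from 250 bases before to 50 bases after a start site. Hmgcs1, HMG-CoA synthase, had 1194 and 1154 CPM at day 6, against 173 and 176 CPM at day 0 (2.75 ± 0.05). Its window is printed to show where the element lies, with the match in capitals (RefSeq, GRCm38.p6, chr13:119690101-119690400, plus strand).
Hmgcs1: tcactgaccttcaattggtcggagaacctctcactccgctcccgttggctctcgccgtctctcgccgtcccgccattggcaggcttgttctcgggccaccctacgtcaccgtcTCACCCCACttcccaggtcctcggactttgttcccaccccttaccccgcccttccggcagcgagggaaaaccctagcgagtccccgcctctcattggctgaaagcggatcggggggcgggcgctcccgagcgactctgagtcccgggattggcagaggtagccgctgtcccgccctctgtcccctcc
A match is a description of the letters and not of binding.

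Secreted factors did not all rise. Of 19 tested hormones and adipokines, 12 were higher and 6 lower (median 2.28). Lep, which encodes leptin, was low even at day 6, with 12.2 and 7.80 CPM and no count at day 0 (at least 70.3-fold). Pltp, the phospholipid transfer protein, had 31.4 and 23.7 CPM at day 6, against 206 and 190 CPM at day 0 (−2.85 ± 0.09). Complement and acute-phase genes were also divided, with 12 of 21 higher and 5 lower (median 1.02). Besides Cfd, the acute-phase gene Orm1 had 166 and 148 CPM against 0.189 and 0.379 CPM (9.05 ± 0.17). In contrast, C1ra, a protease of the classical pathway, had 19.6 and 18.5 CPM against 124 and 117 CPM (−2.66 ± 0.08).

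Transcripts of the insulin response were mostly higher at day 6. Of 27 insulin signalling and glucose transport genes, 20 were higher and 6 lower (median 1.32). Slc2a4, the insulin-regulated glucose transporter GLUT4, had 300.4 and 307 CPM at day 6, against 0.473 and 0.0948 CPM at day 0 (10.00 ± 0.14). Its day 0 libraries held 5 counts and 1 count, and it read 9.28 without day 0 replicate 3. Without day 0 replicate 2 the ratio was 3201 (95% interval 574 to 126476), where the fitted fold was 1021. Tusc5, which keeps GLUT4 in its storage vesicles, rose by 7.77 ± 0.11, and the vesicle sorting receptor Sort1 by 5.54 ± 0.07. Insr, the insulin receptor, had 391 and 402 CPM against 92.8 and 105 CPM (2.00 ± 0.06). By comparison, the IGF-1 receptor gene Igf1r had 28.3 and 30.1 CPM against 93.4 and 99.5 CPM (−1.72 ± 0.07). The receptors of insulin and IGF-1 thus moved in opposite directions. Among the 13 insulin-like growth factor genes, 6 were higher and 7 lower, with Igfbp6 falling by 3.30 ± 0.35 and Igfbp5 rising by 3.05 ± 0.28.

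Glycolysis, glycogen and pentose phosphate genes numbered 37, of which 31 were higher and 4 lower (median 1.94). Pfkfb3, which makes the activator of phosphofructokinase, had 423 and 453 CPM at day 6, against 7.76 and 7.68 CPM at day 0 (5.82 ± 0.08). The glycogen branching enzyme Gbe1 rose by 4.83 ± 0.08 and hexokinase 2 (Hk2) by 4.34 ± 0.08. Eno3, the muscle enolase, fell, with 9.04 and 11.2 CPM against 25.3 and 22.4 CPM (−1.24 ± 0.13).

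Mitochondrial pathways were higher almost throughout. In the citrate cycle and pyruvate entry, 30 of 33 genes were higher and 2 lower (median 2.05). Pcx, pyruvate carboxylase, which feeds the export of citrate for lipogenesis, had 3532 and 3450 CPM at day 6, against 81.1 and 77.8 CPM at day 0 (5.46 ± 0.06). Idh3a and Pdhb, subunits of isocitrate and pyruvate dehydrogenase, rose by 4.01 ± 0.06 and 3.24 ± 0.06. Pdp1, the phosphatase that activates pyruvate dehydrogenase, had 20.9 and 21.99 CPM against 111 and 103 CPM (−2.32 ± 0.08). The inner membrane carriers moved in both directions, with 25 of 39 higher and 8 lower. Slc25a10, the dicarboxylate carrier, had 853 and 822 CPM against 19.03 and 18.6 CPM (5.48 ± 0.07), and Slc25a27, an uncoupling protein homologue, fell by 2.29 ± 0.16.

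Fatty acid oxidation rose alongside synthesis, with 22 of 24 genes higher and 2 lower (median 2.05). Acad11, Hadhb and Acadvl, enzymes of β-oxidation, rose by 3.76 ± 0.07, 3.27 ± 0.06 and 3.22 ± 0.06. Both members that fell were carnitine palmitoyltransferases 1. Cpt1c, mainly a neuronal gene, had 8.22 and 8.84 CPM at day 6, against 61.3 and 59.6 CPM at day 0 (−2.82 ± 0.10). Cpt1a, the gatekeeper of fatty acid entry into mitochondria, had 62.7 and 56.3 CPM against 90.0 and 86.8 CPM (−0.57 ± 0.07). The muscle form Cpt1b had 6 and 9 summed counts at the 2 days and was not tested.

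Branched-chain amino acid and propionate catabolism gave 22 of 23 genes higher (median 2.13). Aldh6a1, a valine-pathway dehydrogenase, had 649 and 645 CPM at day 6, against 51.6 and 48.1 CPM at day 0 (3.70 ± 0.06). The dehydrogenase complex subunits Dbt and Bckdhb rose by 3.60 ± 0.08 and 3.50 ± 0.07. Bcat1, the cytosolic aminotransferase, was the only member that fell, with 4.52 and 5.47 CPM against 39.6 and 40.2 CPM (−2.995 ± 0.13). Its mitochondrial counterpart Bcat2 had 359 and 332 CPM against 38.7 and 39.4 CPM (3.15 ± 0.06).

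The respiratory chain was higher as a whole. All 36 tested complex I subunits were higher, with changes from 0.41 to 2.32 (median 1.42). Ndufa9, an accessory subunit, had 399 and 396 CPM at day 6, against 84.3 and 75.5 CPM at day 0 (2.32 ± 0.06). Ndufa13 was the smallest change (0.41), and its call was lost under 5 of the 9 alternatives. In complexes II to V, 40 of 44 nuclear genes were higher and 1 was lower (median 1.68). Cycs, cytochrome c, had 428 and 430.1 CPM against 28.9 and 25.04 CPM (3.99 ± 0.07). Cox8b and Cox7a1, subunits of heart and brown fat cytochrome oxidase, were the largest rises. Cox8b had 8.92 and 8.03 CPM and no count at day 0, and Cox7a1 had 24.7 and 23.5 CPM against 0 and 0.0948 CPM. Cox7a2l, a supercomplex assembly factor, fell by 0.30 ± 0.06. Transcripts of mitochondrial DNA were not analysed here.

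Most of the brown fat genes listed were too low to test, but those tested mostly rose. Among 30 brown and thermogenic genes, 12 were tested, of which 11 were higher and 1 did not pass (median 2.25). Ucp1, the uncoupling protein, had 2 and 0 counts at day 6 and none at day 0, so no fold is given. Cidea had 1.51 and 1.75 CPM at day 6 and no count at day 0. Ppargc1a, the mitochondrial coactivator, had 41.7 and 42.5 CPM against 20.4 and 20.2 CPM (1.05 ± 0.09). Of 10 white fat markers tested, 9 were higher and 1, the homeobox gene Hoxc9, was lower.

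Peroxisome genes were higher in 36 of 42 and lower in 3 (median 1.56). Abcd2, which imports very long fatty acids, had 187 and 175 CPM at day 6, against 7.29 and 6.83 CPM at day 0 (4.68 ± 0.09). Far1, which makes fatty alcohols for ether lipids, fell by 0.53 ± 0.06. Antioxidant genes were less uniform, with 24 of 37 higher and 11 lower (median 0.47). Catalase (Cat), the peroxisomal enzyme, rose by 2.82 ± 0.05, and the glutathione transferase Gstt1 fell by 2.28 ± 0.22.

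**Figure D3:**
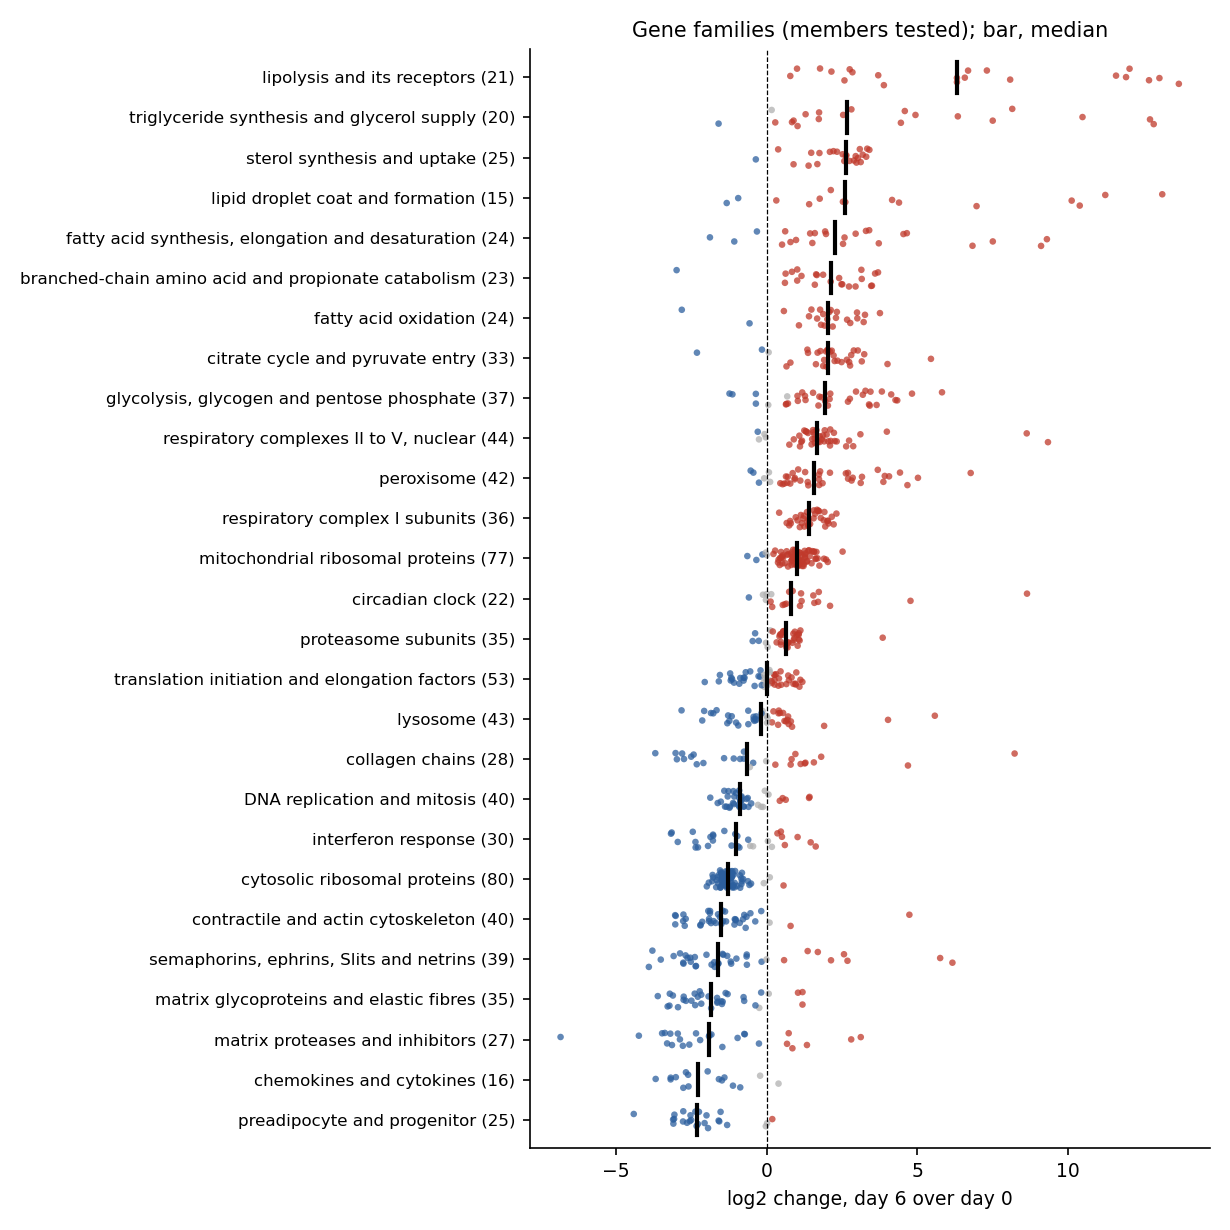
log2 change at day 6 over day 0 of each tested member of 27 gene families, ordered by their median. Each point is a gene, red where higher, blue where lower and grey where it did not pass. The black bar is the family median and the dashed line the median of all genes. Lipolysis stood furthest to the right with a median of 6.32 and precursor genes furthest to the left with −2.33.

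Ribosomal proteins of the mitochondrion and of the cytosol went in opposite directions. Of 77 mitochondrial ribosomal protein genes, 72 were higher and 3 lower (median 1.00). Mrpl12, a large-subunit protein, had 145 and 131 CPM at day 6, against 24.3 and 23.7 CPM at day 0 (2.52 ± 0.07). Mrpl52 fell by 0.64 ± 0.15. Of 80 cytosolic ones, 77 were lower and 1 higher (median −1.30), and they summed to 14991 and 14661 CPM, against 37873 and 34940 CPM. Rps20 had 129.8 and 113 CPM against 505 and 461 CPM (−1.99 ± 0.06), and Rpl12 (−1.93 ± 0.06) and Rps4x (−1.81 ± 0.05) fell as well. The exception was Rpl7l1, a ribosome assembly factor named for its likeness to Rpl7, which rose by 0.56 ± 0.06. Both directions held under each of the 9 alternatives. Ribosomal protein genes have many processed copies in the genome, and no source here says how reads of such copies were counted, which leaves single members uncertain.

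**Figure D4:**
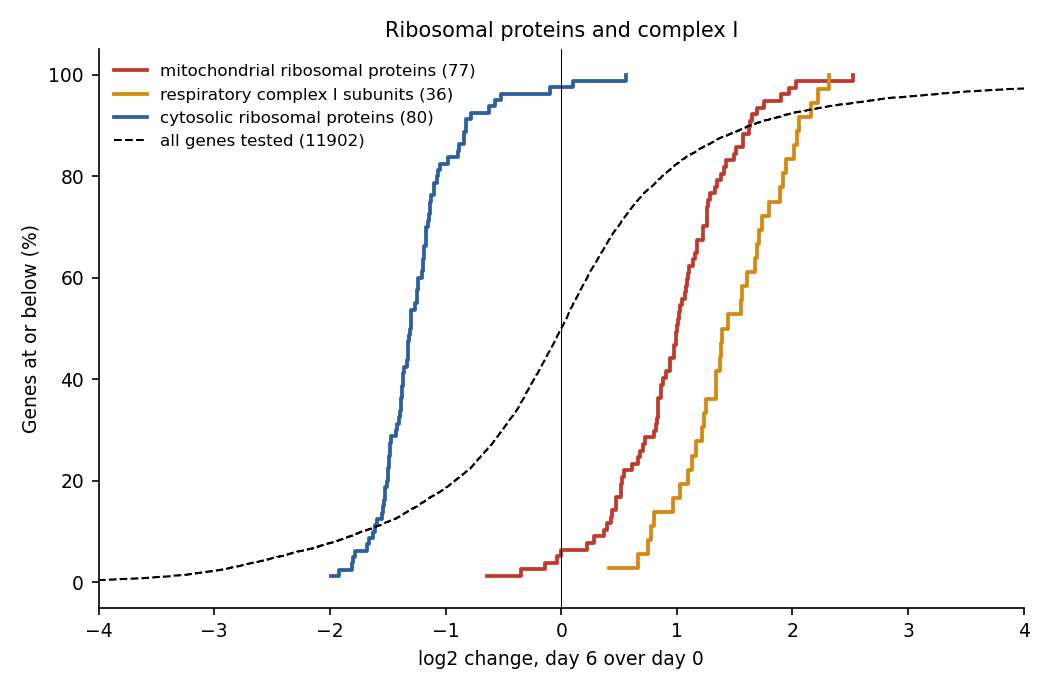
Share of genes (%) at or below each log2 change, day 6 over day 0, for 77 mitochondrial ribosomal proteins, 36 complex I subunits, 80 cytosolic ribosomal proteins and, dashed, all 11902 genes tested. The cytosolic curve lies almost wholly left of 0 (median −1.30) and the mitochondrial curve almost wholly right of it (median 1.00).

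Translation factors had no common direction, with 22 of 53 higher and 20 lower (median 0.02), and with library size alone 13 were higher and 33 lower. Eef1e1 rose by 1.18 ± 0.12 and Eif5a2 fell by 2.06 ± 0.12. Proteasome genes were higher in 29 of 35 and lower in 3 (median 0.64). Psma1, a subunit of the 20S core, stood apart with 938 and 946 CPM at day 6, against 66.2 and 64.1 CPM at day 0 (3.85 ± 0.06), whereas the next member, Psmb3, rose by 1.12 ± 0.07. Endoplasmic reticulum folding genes were higher in 20 of 26. Ero1l, the oxidase that drives disulfide formation, had 1922 and 2091 CPM against 72.2 and 72.3 CPM (4.80 ± 0.07). Pdia5, a disulfide isomerase, fell by 1.21 ± 0.10. Lysosomal genes were divided, with 17 of 43 higher and 21 lower (median −0.17).

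Precursor genes fell. Of 25 preadipocyte and progenitor genes, 22 were lower and 1 was higher, with a median of −2.33. Dlk1, the preadipocyte factor Pref-1, had 396 and 346 CPM at day 6, against 3286 and 3125 CPM at day 0 (−3.11 ± 0.06). Prrx2, a mesenchymal homeobox gene, had 13.3 and 14.3 CPM against 108 and 129 CPM (−3.10 ± 0.10). Mest, an imprinted gene of expanding fat, was the exception with 104 and 105 CPM against 91.0 and 93.4 CPM (0.18 ± 0.06), but it read −0.11 with library size alone, and the call was lost under 4 of the 9 alternatives. Imprinted genes as a list were lower in 10 of 16 and higher in 4, with Peg3 at −2.10 ± 0.13 and Peg10 at 2.59 ± 0.06.

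Collagen chain transcripts were not uniformly reduced. Of 28 tested collagen chains, 11 were higher and 15 lower (median −0.66), and the 44 chains summed to 28442 and 27569 CPM at day 6, against 48591 and 47518 CPM at day 0. Col12a1, a fibril-associated chain, had 38.9 and 43.6 CPM against 501 and 574 CPM (−3.70 ± 0.08). The fibrillar chains Col1a1 and Col1a2, chosen after their values were seen, fell by 2.51 ± 0.06 and 2.33 ± 0.06. Col10a1, best known from growth cartilage, had 18.9 and 17.6 CPM at day 6, against 0 and 0.0948 CPM at day 0, a ratio of 385 (68.6 to 15245). The basement membrane chain Col4a1, also chosen after its values were seen, had 4923 and 4820 CPM against 2228 and 2235 CPM (1.13 ± 0.05).

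Enzymes that process collagen were lower in 20 of 27 and higher in 7 (median −1.27). P4ha3, a prolyl hydroxylase subunit, fell by 3.13 ± 0.17 and Loxl4, a crosslinking oxidase, by 3.00 ± 0.12, whereas Plod1, a lysyl hydroxylase, rose by 1.89 ± 0.05. Glycoproteins and elastic fibre genes were lower in 30 of 35 (median −1.85). Thbs3, a thrombospondin, had 8.80 and 8.03 CPM at day 6, against 103 and 104 CPM at day 0 (−3.62 ± 0.09), and Matn4 (−3.29 ± 0.10) and Fbln1 (−3.23 ± 0.09) fell as well. Proteoglycans were lower in 20 of 25 and higher in 2 (median −1.16). Ogn, osteoglycin, had 77.4 and 67.6 CPM against 470.0 and 471 CPM (−2.70 ± 0.06), and Prelp, which links basement membranes to collagen, rose by 1.79 ± 0.06.

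Laminins and nidogens were higher in 5 of 10 and lower in 2, but with library size alone 2 were higher and 4 lower. Lamb3 had 25.5 and 26.1 CPM at day 6, against 0.663 and 0.569 CPM at day 0 (5.36 ± 0.22), and Lamb2 fell by 1.75 ± 0.05. Matrix proteases and their inhibitors were lower in 21 of 27 and higher in 6 (median −1.92). Mmp3, stromelysin, had 0.116 and 0 CPM against 9.18 and 7.21 CPM, a ratio of day 0 to day 6 of 141 (25.01 to 5608). Mmp9, a gelatinase, had 1.27 and 1.05 CPM against 19.5 and 25.1 CPM (−4.25 ± 0.24). Timp4, an inhibitor typical of fat, had 21.4 and 21.8 CPM against 2.27 and 2.66 CPM (3.13 ± 0.17). Of 21 integrin genes, 11 were lower and 5 higher.

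The contractile cytoskeleton was lower in 37 of 40 genes and higher in 2 (median −1.53). Acta2, smooth muscle actin, had 87.7 and 87.0 CPM at day 6, against 723 and 714 CPM at day 0 (−3.04 ± 0.06), and Tpm1 and Flnc, a tropomyosin and a filamin, fell by 3.04 ± 0.06 and 3.03 ± 0.06. Des, the muscle intermediate filament desmin, went the other way with 39.6 and 39.6 CPM against 1.23 and 1.71 CPM (4.74 ± 0.17). Caveola genes were higher in 7 of 10 (median 1.27). Cav2 had 1182 and 1170 CPM against 84.6 and 88.7 CPM (3.76 ± 0.06), and the coat scaffold Cav1 rose by 2.48 ± 0.05. Cadherins and other junction genes were lower in 13 of 17, with Cdh11 of mesenchymal cells at 159.8 and 151 CPM against 1136 and 1136 CPM (−2.87 ± 0.06), although the claudin Cldn15 rose by 4.00 ± 0.11.

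Genes of DNA replication and mitosis were lower in 30 of 40 and higher in 5 (median −0.88). Uhrf1, which reads newly replicated DNA, had 7.76 and 9.54 CPM at day 6, against 31.7 and 31.9 CPM at day 0 (−1.88 ± 0.12). Mcm6, a subunit of the replicative helicase, had 21.7 and 19.7 CPM against 56.8 and 62.2 CPM (−1.53 ± 0.09). Cyclin E2 (Ccne2) rose, with 31.3 and 29.0 CPM against 11.2 and 11.3 CPM (1.42 ± 0.11). A separate list of D cyclins, inhibitors of cyclin-dependent kinases and retinoblastoma-type proteins had no common direction. Of its 18 tested members, 10 were higher and 8 lower (median 0.28), and with library size alone 8 were higher and 8 lower. The members with the largest changes are given here. Ccnd1, cyclin D1, had 36.7 and 33.3 CPM against 265 and 271 CPM (−2.93 ± 0.06). Cdkn2c, an inhibitor of its kinase partners, had 469.9 and 458 CPM against 54.8 and 51.1 CPM (3.13 ± 0.06), and the retinoblastoma gene Rb1 rose by 2.16 ± 0.08.

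E2F factors, which retinoblastoma proteins hold in check, bind the letters TTTCCCGC and TTTGGCGC. Searched on both strands, either was found in 8 of 32 list members with a RefSeq window, namely Cdc6, Cdk2, Cdt1, E2f2, Mcm3, Mcm5, Mcm6 and Mcm7, and in 1.56% of all 32851 windows. The 8 genes did not share a direction. Mcm3, Mcm5, Mcm6 and Cdt1 fell, Cdc6 (−0.29 ± 0.26) and Mcm7 (0.06 ± 0.07) did not pass, Cdk2 rose by 0.43 ± 0.08, and E2f2 was not tested. The windows of Mcm6, which fell and has 2 matches, and of Cdk2, which rose and has 1, are printed for comparison with the matches in capitals (RefSeq, GRCm38.p6, 5′ to 3′ on the gene's own minus strand, chr1:128359656-128359955 for Mcm6 and chr10:128705002-128705301 for Cdk2).
Mcm6: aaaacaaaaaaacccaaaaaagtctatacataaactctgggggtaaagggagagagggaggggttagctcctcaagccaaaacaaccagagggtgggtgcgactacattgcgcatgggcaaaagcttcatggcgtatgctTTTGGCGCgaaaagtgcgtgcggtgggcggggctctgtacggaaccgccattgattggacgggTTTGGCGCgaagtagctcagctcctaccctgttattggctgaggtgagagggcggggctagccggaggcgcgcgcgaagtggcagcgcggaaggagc
Cdk2: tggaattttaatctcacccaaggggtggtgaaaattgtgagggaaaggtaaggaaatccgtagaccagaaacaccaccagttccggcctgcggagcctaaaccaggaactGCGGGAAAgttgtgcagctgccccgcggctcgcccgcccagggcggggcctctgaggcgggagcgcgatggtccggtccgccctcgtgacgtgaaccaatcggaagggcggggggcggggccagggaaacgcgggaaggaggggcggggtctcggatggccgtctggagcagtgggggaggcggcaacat
The capitals of Cdk2 are the first motif read from the opposite strand. The call of Cdk2 was lost with 1 of the 9 alternatives.

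Signals that shape mesenchyme were mostly lower. Wnt ligands, receptors and antagonists were lower in 17 of 24 and higher in 3 (median −0.71). Wnt4 had 1.04 and 1.05 CPM at day 6, against 15.8 and 14.0 CPM at day 0 (−3.82 ± 0.24). The TGF-β, BMP and activin pathway was lower in 27 of 41 and higher in 10 (median −0.84). Smad9, a BMP signal transducer, had 0.695 and 1.16 CPM against 13.2 and 11.5 CPM (−3.71 ± 0.26). Gdf5, a BMP-family ligand, was the largest rise with 34.5 and 33.4 CPM against 0 and 0.0948 CPM, a ratio of 717 (128 to 28361).

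Growth factor genes of the FGF, PDGF and VEGF families were lower in 13 of 23 and higher in 9 (median −0.77). Fgf1, a PPARγ target in fat, had 15.5 and 17.6 CPM at day 6 and no count at day 0 (at least 116-fold). Nrp2, a VEGF-C and semaphorin coreceptor, had 15.2 and 16.3 CPM against 130.2 and 139 CPM (−3.09 ± 0.08). Guidance genes were lower in 30 of 39 and higher in 8 (median −1.61). Epha4 had 2.20 and 2.79 CPM against 34.6 and 41.2 CPM (−3.92 ± 0.17), and Efnb2, an ephrin ligand, had 7.88 and 8.15 CPM against 113 and 110 CPM (−3.80 ± 0.09). The secreted semaphorin Sema3g had 211 and 228 CPM at day 6, against 3.22 and 2.84 CPM at day 0 (6.17 ± 0.10). Hox genes were lower in 9 of 16 and higher in 2, of which Hoxa4 rose by 2.60 ± 0.22.

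Nuclear receptors had no majority that held under every scaling. Of 28, 14 were higher and 10 lower, a balance that turned with library size alone and with upper-quartile factors. Nr1h3, the oxysterol receptor LXRα, had 118 and 116 CPM at day 6, against 2.84 and 2.18 CPM at day 0 (5.53 ± 0.11). Vdr, the vitamin D receptor, had 5.79 and 3.72 CPM against 31.1 and 30.9 CPM (−2.70 ± 0.15). Clock genes were higher in 17 of 22 and lower in 1 (median 0.80). Npas2 had 5.10 and 5.35 CPM at day 6 and no count at day 0 (at least 36.8-fold), and the receptor Rora rose by 2.10 ± 0.08. Time of day at sampling is not stated.

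Glucocorticoid targets were higher in 13 of 18 and lower in 4 (median 1.20). Dexamethasone was in the medium until day 2. Hsd11b1, which regenerates active glucocorticoid, had 339 and 357 CPM at day 6, against 1.51 and 1.04 CPM at day 0 (8.07 ± 0.11). Zbtb16, an early dexamethasone-induced factor, had 56.5 and 55.2 CPM against 1.799 and 1.23 CPM (5.19 ± 0.15). Sgk1, a kinase gene of the same response, had 25.6 and 26.2 CPM against 74.5 and 75.01 CPM (−1.53 ± 0.08).

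Chemokines and cytokines were lower in 14 of 16, and none was higher (median −2.28). Without day 6 replicate 1, 1 was higher and 11 lower. Ccl2, which recruits monocytes, had 1.74 and 1.75 CPM at day 6, against 21.9 and 23.4 CPM at day 0 (−3.69 ± 0.19), and Ccl7 had 2.32 and 2.09 CPM against 20.4 and 20.2 CPM (−3.19 ± 0.18). Interferon response genes were lower in 19 of 30 and higher in 7 (median −1.01). Xaf1 fell by 3.18 ± 0.28 and Oasl2 by 2.96 ± 0.41, whereas Ifi27 had 380.1 and 368 CPM against 121 and 121 CPM (1.63 ± 0.05). The immune markers summed to 5.33 and 5.12 CPM at day 6, against 19.2 and 15.8 CPM at day 0, and their part in these falls was not tested. MHC class I and antigen processing genes had no common direction, with 9 of 20 higher and 7 lower (median 0.08). With library size alone, 7 were higher and 10 lower. The largest rise was the class I gene H2-K1, with 102 and 87.7 CPM against 10.6 and 12.2 CPM (3.05 ± 0.10). Reads of its close family members may be shared. The largest fall was H2-M5, with 0.116 and 0.116 CPM at day 6, against 3.50 and 4.55 CPM at day 0. Its ratio of day 0 to day 6 was 34.7 (95% interval 9.31 to 291).

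Stress and amino acid genes gave a mixed account. In the integrated stress and serine synthesis list, 14 of 26 were higher and 5 lower, and 10 were lower with library size alone. Eif4ebp1, a brake on cap-dependent translation, had 713 and 713 CPM at day 6, against 119.8 and 111 CPM at day 0 (2.63 ± 0.06). Slc7a5, the large neutral amino acid transporter, had 56.5 and 56.7 CPM against 159 and 146 CPM (−1.43 ± 0.06). Amino acid transporters were lower in 15 of 27 and higher in 8. Slc36a2, a proton-coupled carrier of small amino acids, had 68.6 and 70.5 CPM against 0.379 and 0.0948 CPM (8.12 ± 0.20). It read 7.46 without day 0 replicate 3, and without day 0 replicate 2 the ratio was 733 (95% interval 131 to 28989). Slc38a4 had 6.37 and 7.33 CPM against 71.5 and 72.3 CPM (−3.39 ± 0.10). Histone genes were higher in 16 of 25 and lower in 6 (median 1.09), led by Hist1h4h with 13.0 and 9.54 CPM against 0.379 and 0 CPM. Replication-dependent histone transcripts mostly lack a poly(A) tail, these libraries were made by oligo(dT) enrichment, and the copies are nearly alike, so the histone values are uncertain.

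Single members of other families changed by large amounts. Atp1b1, a regulatory subunit of the sodium pump, had 25.1 and 24.4 CPM at day 6, against 220.5 and 209 CPM at day 0 (−3.11 ± 0.07). Among carboxylesterases, Ces1f had 498 and 513 CPM against 6.34 and 6.26 CPM (6.32 ± 0.08), and Ces1a had 1.39 and 0.931 CPM against 26.0 and 27.8 CPM (−4.52 ± 0.20). The Ces1 genes are tandem copies that may share reads. Among cytochromes P450, Cyp2ab1 had 79.2 and 89.5 CPM against 0 and 0.0948 CPM, a ratio of 1780 (319 to 70371), and Cyp7b1, an oxysterol hydroxylase, had 1.39 and 1.396 CPM against 20.5 and 22.001 CPM (−3.92 ± 0.20). Aldh1a7 rose by 8.25 ± 0.13 (8.89 without day 0 replicate 2) and Adh7, an alcohol dehydrogenase that oxidises retinol, fell by 3.31 ± 0.09. The water channel Aqp1 fell by 2.50 ± 0.07, whereas Aqp7 rose as given above. Of 7 bone and cartilage markers, 5 were lower, among them Runx2 with 14.5 and 14.9 CPM against 63.4 and 63.9 CPM (−2.12 ± 0.09), and Alpl was higher with 14.6 and 14.4 CPM against 0.189 and 0.0948 CPM.

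Finally, 22 pairs of genes for the same enzyme, carrier or receptor family were set side by side, to see which form carried each change. In 17 pairs both genes were tested. Slc2a4 rose by 10.00 ± 0.14 and Slc2a1, the basal glucose transporter, by 1.16 ± 0.06. Acsl1 had 10035 and 9986 CPM at day 6, against 36.5 and 33.8 CPM at day 0 (8.15 ± 0.08), and Acsl4, which prefers arachidonate, rose by 1.18 ± 0.06. Lpin1 rose by 4.94 ± 0.07 and Lpin2 by 0.84 ± 0.08. Pck2, the mitochondrial counterpart of Pck1, had 139.6 and 148 CPM against 117 and 119.8 CPM (0.28 ± 0.06), and read −0.0066 with library size alone. Gpd1l, the homologue of Gpd1, had 33.7 and 32.0 CPM against 28.8 and 29.9 CPM and did not pass the edgeR test (0.16 ± 0.09, adjusted p = 0.0974 in edgeR).

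In 4 pairs the genes moved in opposite directions. Hk2 had 238 and 247 CPM at day 6, against 12.7 and 11.3 CPM at day 0, whereas Hk1 had 95.6 and 94.8 CPM against 123 and 122 CPM (−0.36 ± 0.06). Bcat2 and Bcat1, and Insr and Igf1r, are given above. The nonmuscle myosin Myh9 had 275 and 277 CPM against 1017 and 1028 CPM (−1.89 ± 0.05), and Myh10 had 415 and 408 CPM against 227 and 248 CPM (0.79 ± 0.05). In other pairs both genes rose. Acaca, the cytosolic acetyl-CoA carboxylase, rose by 2.95 ± 0.06 and the mitochondrial Acacb by 1.60 ± 0.09. Ldha rose by 3.40 ± 0.06 and Ldhb by 2.11 ± 0.07. Differences between the genes of a pair were not tested.

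**Figure D5:**
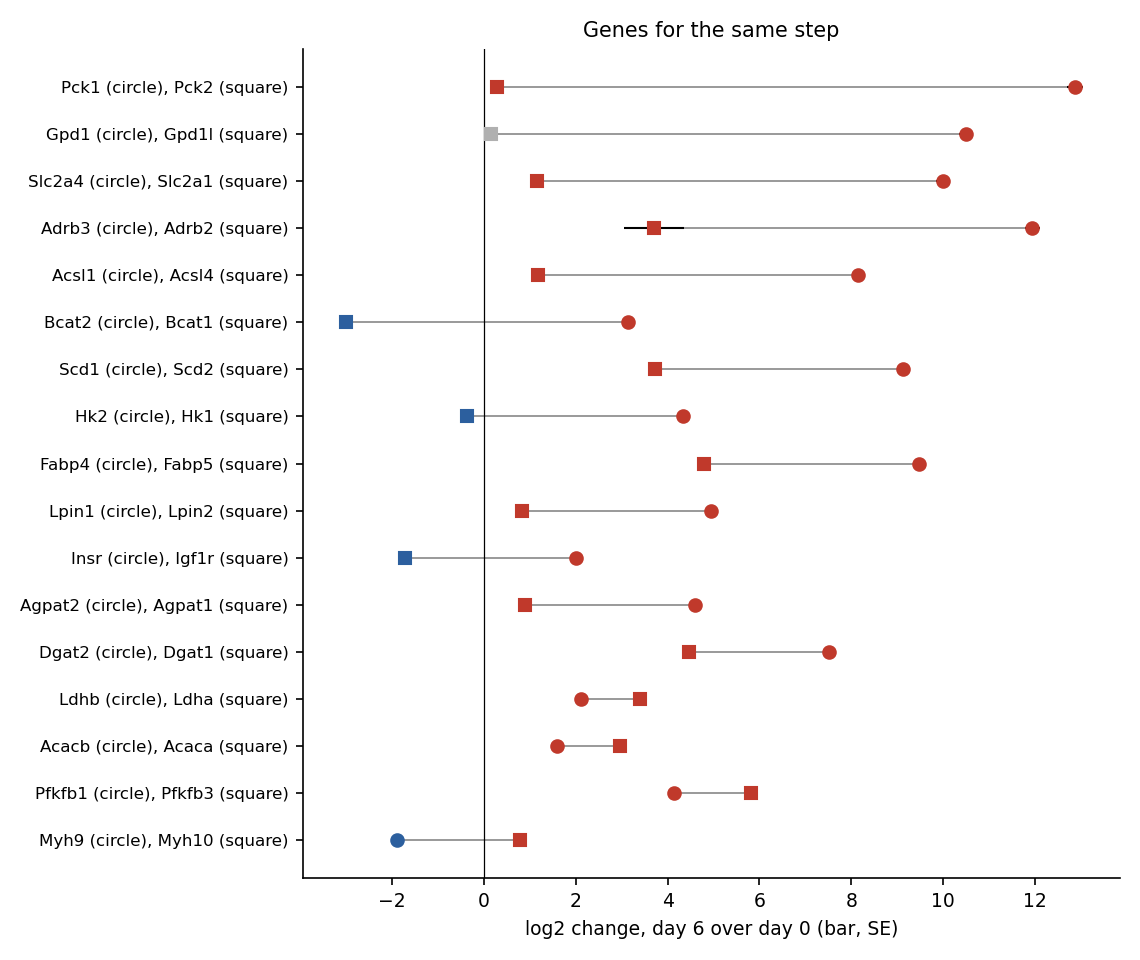
log2 change at day 6 over day 0 of both genes of the 17 pairs in which both were tested, the first gene as a circle and the second as a square, with its SE. Red is higher at day 6, blue lower and grey did not pass. In 4 pairs (Bcat2 and Bcat1, Hk2 and Hk1, Insr and Igf1r, Myh9 and Myh10) a red and a blue symbol lie on opposite sides of 0.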

How the data were processed

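RNA-seq of oligo(dT)-enriched RNA was available for 2 day 6 and 2 day 0 libraries of 3T3-L1. The authors deposited raw counts per gene symbol, not normalized and not pooled. Sources differ on how the counts were made. The deposited 3T3-L1 table carries an htseq-count name, and STAR with HTSeq is described in the study's methods for its other RNA-seq samples, but Bowtie2, RSEM 1.3.1 and the mm10 build (with DESeq2 1.4.5) are listed in the processing notes of the submitters. Annotation, strand use and treatment of multi-mapped reads are not stated in these sources, and antisense, overlapping and near-identical genes may share reads. Replicates differed by more than counting noise (chi-square per gene 1.87 at day 6 and 2.18 at day 0).

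Counts were tested with edgeR 4.0.16 in R 4.3.3 (TMM, filterByExpr with a minimum count of 10, two-sided quasi-likelihood test, Benjamini-Hochberg at 0.05), after tests on simulated counts. Alternatives were DESeq2 size factors, library size alone, upper-quartile factors, no low-count filter, DESeq2 1.42.0 and leaving out each library. The members and the 71 gene lists were chosen with earlier results of these data known, so lists carry no test of their own. Genes named were the 10 largest rises and falls above a log2 CPM of 3 on average, without predicted genes, up to 3 members per list in its main direction and 1 in the other, both genes of 22 pairs and 8 adipocyte genes. Hmgcs1, Mcm3, Mcm5, Mcm7, Cdc6, Cdt1, Cdk2 and E2f2 were named for their promoter match, and the few others after their values were seen. Promoter windows are from RefSeq on GRCm38.p6. Some items withheld for evaluation are not reported here.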

Additional observations from a re-analysis of the deposited data

How the results depend on the processing

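Over the alternatives, the count of genes higher at day 6 ran from 3424 with library size alone to 4772 with DESeq2 size factors, and the count lower from 3846 with DESeq2 to 6306 with library size alone. Leaving out each library gave 4157 to 4618 higher and 4042 to 4489 lower. Library size alone also turned 54 calls. Of all 9453 calls, 6929 kept their direction and their side of the threshold under every alternative in which they were fitted. The named genes were mostly chosen for large changes. Of 292 named genes tested, 283 could be fitted under all 9 alternatives, and 270 of these kept their direction and their side of the threshold throughout. The other 9 missed the low-count filter in at least 1 leave-out and were not fitted there. With library size alone Gpd1l read −0.13, Mest −0.11 and Pck2 −0.0066. DESeq2 lost 8 named calls and leaving out 1 library lost 2 to 6. No paired analysis was possible because the groups share only replicate number 2. With 2 libraries in each group, no library can be judged as standing apart from its group, and genes of a few counts are known only to within wide intervals.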

Other observations

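The 2 day 0 libraries differed in adipocyte genes. Replicate 2 had more counts than replicate 3 for Cidec (38 and 1), Cd36 (22 and 1), Gpd1 (44 and 10), Adipoq (15 and 5) and Fabp4 (173 and 81), at nearly equal depth. These genes were chosen after their values were seen. The direction was not common to all adipocyte genes, since Orm1 had 2 and 4 counts and Lgals12 had 1 and 4. With either day 0 library left out, Cidec, Cd36, Gpd1, Adipoq and Fabp4 still passed the edgeR test as higher at day 6. The difference between the day 0 libraries was not tested.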
